A study of Mus musculus with 12 samples.

Results

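The Hox gene clusters were examined in maps of CTCF binding in the liver of starved and fed mice. The set comprised 38 Hox genes of 4 clusters, out of 49997 annotated genes with a position: 10 genes each of the Hoxa and Hoxb clusters and 9 each of the Hoxc and Hoxd clusters. Binding sites were taken from the stretch between the outermost listed genes of a cluster and from 50 kb on either side, which gave 47 of the 76061 sites called in any library. In mm10 these windows are chr6:52112417-52310880 for Hoxa (12 sites), chr11:96144316-96418254 for Hoxb (19 sites), chr15:102871131-103086856 for Hoxc (6 sites) and chr2:74618225-74815142 for Hoxd (10 sites). CTCF chromatin immunoprecipitation and sequencing (ChIP-seq) had been carried out on snap-frozen whole livers of male, WT C57BL6/Ncrl mice aged 3 to 4 months on normal chow. In the starved group food was withheld for 24 h and livers were taken at ZT13 (zeitgeber time, hours after lights on), and in the ad libitum fed group livers were taken at ZT16, with 3 ChIP libraries in each group. Feeding and collection time therefore cannot be told apart. Whether each library stands for its own mouse is not stated in the labels, so a p-value here reflects only how far these libraries scatter, which may be technical.

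Hox genes encode homeodomain transcription factors that give cells their position along the body axis, and their order on the chromosome follows the order in which they are used along that axis. In many cells that keep a positional Hox pattern, a cluster is divided into a transcribed part and a part silenced by Polycomb proteins. Whether liver cells have such a division was not examined. CTCF, a zinc finger protein that anchors chromatin loops together with cohesin, binds within the clusters, and in mouse motor neurons its sites in the Hoxa cluster are known to separate the silenced from the active part. Liver holds several cell types, and fibroblasts of many organs are known to keep a pattern of Hox expression from development. Peak lists measure binding and not expression, and in whole liver fewer cells with a bound site and less binding per cell cannot be told apart. The tissue label was not checked against expression. A site called in all 3 fed libraries lay within 5 kb of 3 of 6 marker genes of stellate cells and fibroblasts, 1 of 5 of endothelial cells, 0 of 4 of Kupffer cells, 1 of 4 of cholangiocytes and 1 of 5 of hepatocytes, against 57.1% of the 21900 protein-coding genes.

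Of the 38 genes, 22 matched a RefSeq promoter (GRCm38.p6, the build of mm10), with 24 windows of 250 bases before the start between them, and 3 of these windows overlapped a site. They are shown here because they are the matched Hox promoters that overlapped a called site. The site over Hoxa5 and the one over Hoxa10 were called in all 6 libraries, and the one over Hoxd9 had peaks in each fed library and in none of the starved ones. Capitals mark AGGNGGC, a well conserved stretch of the CTCF motif, or its reverse complement GCCNCCT. The windows are Hoxa5 at chr6:52204588-52204837 on the minus strand, of which all 250 bases lay in the site, Hoxa10 at chr6:52240855-52241104 on the minus strand, of which 118 bases lay in the site, and Hoxd9 at chr2:74697513-74697762 on the plus strand, of which 163 bases lay in the site.
Hoxa5: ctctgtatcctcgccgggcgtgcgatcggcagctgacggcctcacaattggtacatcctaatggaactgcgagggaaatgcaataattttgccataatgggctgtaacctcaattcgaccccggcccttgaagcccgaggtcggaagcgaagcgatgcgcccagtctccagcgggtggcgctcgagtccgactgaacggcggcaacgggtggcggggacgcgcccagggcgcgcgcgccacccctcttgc
Hoxa10: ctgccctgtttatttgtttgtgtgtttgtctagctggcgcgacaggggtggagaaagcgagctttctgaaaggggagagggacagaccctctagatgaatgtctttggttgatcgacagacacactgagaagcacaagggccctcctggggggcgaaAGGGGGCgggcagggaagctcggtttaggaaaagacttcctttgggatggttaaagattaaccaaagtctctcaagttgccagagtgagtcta
Hoxd9: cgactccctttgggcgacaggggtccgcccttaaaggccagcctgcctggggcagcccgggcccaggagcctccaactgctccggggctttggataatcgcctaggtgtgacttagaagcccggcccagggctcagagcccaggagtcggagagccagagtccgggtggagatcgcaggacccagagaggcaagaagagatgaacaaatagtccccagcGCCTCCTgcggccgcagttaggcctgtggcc
The Hoxa10 window held AGGGGGC from position 158 and the Hoxd9 window held GCCTCCT from position 220, counted from the 5′ end, and both matches lay within the called site. The Hoxa5 window held no match, which says only that these letters are not in these bases. Near matches were not marked, such as gggtggc in the Hoxa5 window, which differs from AGGNGGC in the first letter only. The marks therefore do not show which of the windows holds a CTCF motif. AGGNGGC was searched on both strands and occurred in 7 of the 24 Hox windows (29.2%), against 25% of all 32851 promoter windows and 43.2% of the 5451 windows that overlapped a site called in all 3 fed libraries. These letters were chosen after matches had been seen, and a match is a description and not a shown binding site.

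The starved lists held 30752, 23926 and 29866 peaks and the fed lists 56103, 49030 and 74950. The read depth behind the lists is unknown. Overlapping peaks (1 base or more) from any of the lists were merged into a site, and a site called in all 3 fed libraries is named a fed site. The authors' score of each peak was used only to rank the peaks within their own list, as a percentile with 100 for the best. Since the lists differ in length, a difference between the percentiles of a starved and a fed list shows no change in binding.

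Fewer Hox sites were called in starved livers. The starved libraries held 27, 24 and 26 of the 47 sites, against 40, 37 and 46 in the fed libraries. The mean was 25.7 ± 1.53 in starved and 41.0 ± 4.58 in fed libraries (SD, n = 3 libraries each). The groups did not overlap, and the means differed by -15.3 sites, a starved to fed ratio of 0.626 where the ratio of all peaks was 0.469. The number was lower in every cluster, without overlap between the groups. Hoxa had 8, 7 and 8 sites in starved libraries, against 9, 9 and 12 in fed libraries. Hoxb, the cluster with the most sites, had 10, 9 and 10 in starved libraries, against 16, 14 and 19 in fed libraries. Hoxc had 3 sites in each starved library, against 6, 5 and 5 in fed libraries. Hoxd, whose genes pattern the limbs and the genital bud, had 6, 5 and 5 sites in starved libraries. In fed libraries it had 9, 9 and 10. Each of the 47 sites was called in at least 1 fed library.

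The difference in number was small between lists of equal length. When each list was cut to its 23926 best-scored peaks, the length of the shortest list, the starved libraries held 22, 24 and 22 Hox sites, against 24, 25 and 23 in the fed libraries (22.7 ± 1.15 and 24.0 ± 1.0, SD, n = 3 each). The difference was then -1.33 sites, and the groups overlapped in every cluster. Relative to the length of their own list, starved libraries held more Hox sites, with 8.78, 10.03 and 8.71 per 10000 peaks, against 7.13, 7.55 and 6.14 in fed libraries. That difference of 2.23 reversed to -0.557 at equal list length.

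**Figure D1:**
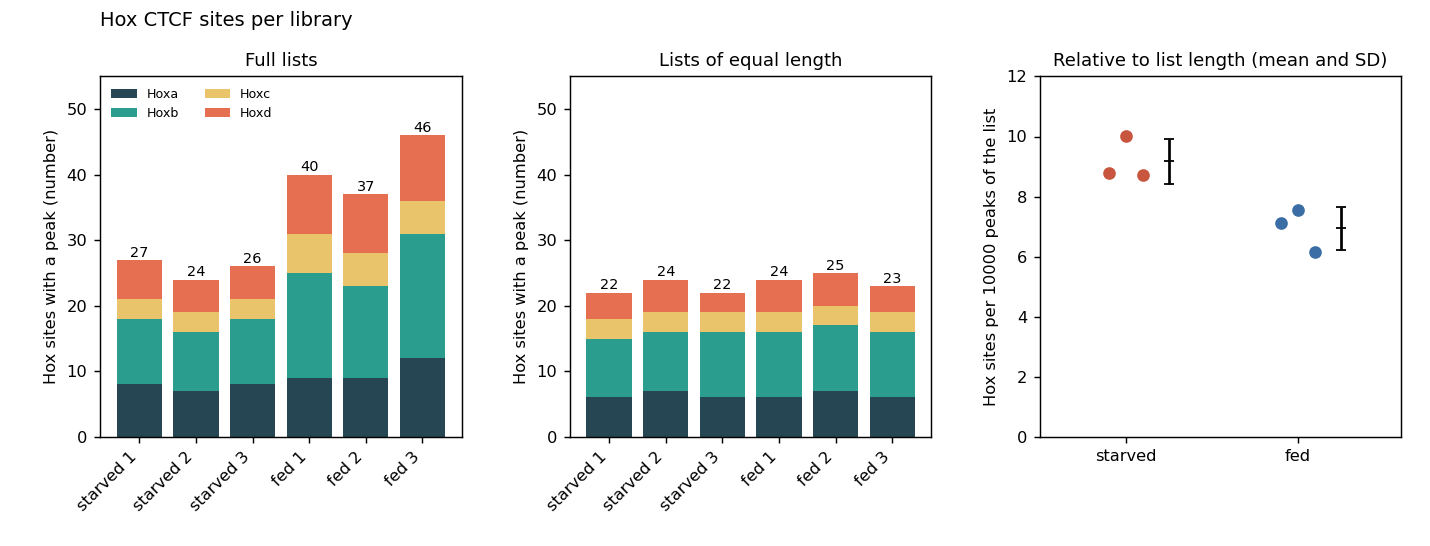
Hox sites with a peak in each of the 3 starved and 3 fed libraries, stacked by cluster, for the full lists and for lists cut to 23926 peaks, and (right) Hox sites per 10000 peaks with points for libraries and bars for mean and SD. The full starved lists held 24 to 27 sites and the fed lists 37 to 46, against 22 to 24 in starved and 23 to 25 in fed lists at equal length.

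Most Hox sites of fed livers were still called after starvation. Of the 37 fed sites, 23 (62.2%, exact 95% interval 44.8 to 77.5) were called in all 3 starved libraries, against 49.3% of all 44909 fed sites of the genome. Another 5 of the 37 (13.5%) were called in 1 or 2 starved libraries, against 21.6%, so that 28 (75.7%) were called in at least 1, against 70.9%. The remaining 9 (24.3%, interval 11.8 to 41.2) were called in no starved library, against 29.1% of all fed sites. Both intervals hold the genome's share. They allow for counting error alone, and sites of a cluster are not independent. The intervals therefore cannot decide whether Hox sites differ from other fed sites, which was not tested. Single starved libraries held 73.0, 64.9 and 70.3% of the Hox fed sites and 64.9, 51.6 and 63.6% of all fed sites. At equal list length 21 of 22 Hox fed sites were in all 3 starved lists (95.5%, interval 77.2 to 99.9), against 88.9% of all, and 0 were in none, against 1.20%. With only the peaks at or above the median score of 30.4 over all lists, 9 of 25 Hox fed sites (36%) were in all 3 starved lists, against 36.9% of all.

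Hox sites that scored high in fed livers were called after starvation more often than those that scored low, with some exceptions in between. The 18 Hox fed sites with a mean fed percentile above 70 were all called in all 3 starved libraries, as were 99.1% of the 17418 such sites of the genome. Between 60 and 70, 4 of 6 Hox sites were called in all 3 starved libraries, against 66.9% of all. Between 50 and 60, 1 of 3 was, against 17.9%. Of the 10 at or below 50, 1 was called in any starved library, against 26.8% of all. The Hox clusters held a larger share of sites above 70 than the genome did, 18 of 37 (48.6%) against 38.8%, and the median fed percentile of Hox fed sites was 67.8, against 61.0. It was 80.8 for Hoxa, 71.4 for Hoxb, 66.0 for Hoxc and 61.6 for Hoxd. These shares describe the clusters and were not tested.

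**Figure D2:**
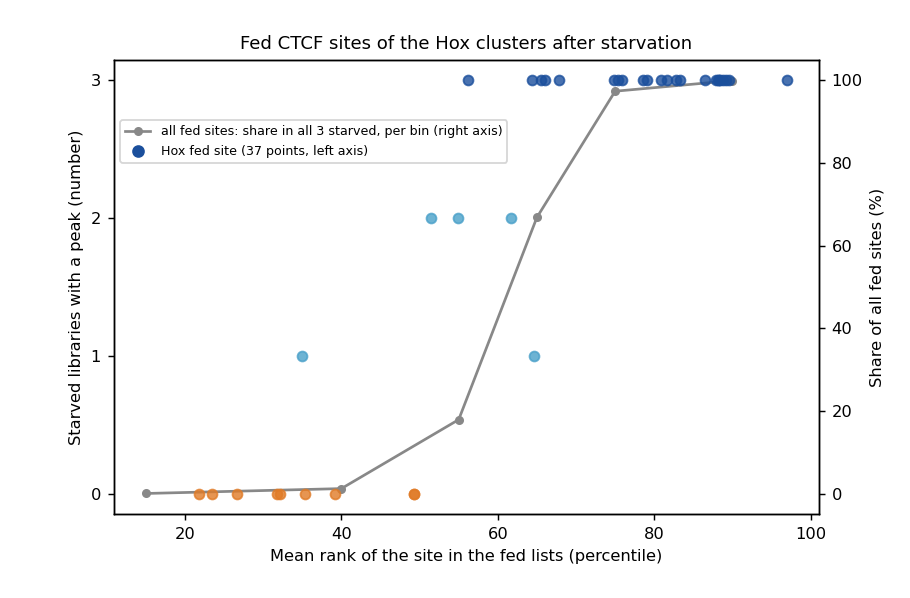
Number of starved libraries with a peak (left axis) for the 37 Hox fed sites, 1 point each, by their mean percentile in the fed lists (x axis), with the share of all fed sites called in all 3 starved libraries per bin (line, right axis, %). All 18 Hox sites above 70 sit at 3 libraries, and 9 of the 10 at or below 50 sit at 0.

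The sites called in all 6 libraries fell at recurring places among the genes. Of these 23 sites, 10 overlapped a Hox gene, 9 lay between Hox genes without touching any and 4 lay in the flanks. In every cluster 1 of the 9 lay between the group 9 gene and the next listed gene of lower number. Group 9 genes pattern the trunk and, in the case of Hoxa9, act in blood progenitors. The gap below the group 13 gene, which acts at the rear end of the axis, held such a site in 3 of 4 clusters, with Hoxc as the exception. Of 34 gaps between neighbouring listed genes, these 7 held a site that touched no Hox gene. Another 4 would be counted if sites inside the long annotated models of Hoxa3, Hoxb3 and Hoxd3 were included, 11 in all. Part of the 34 could hold no such site, as Hoxa4, Hoxb4 and Hoxd4 lie inside those models and Hoxd11 overlaps Hoxd10. The length of the gaps was not allowed for either, so 7 of 34 does not measure how unusual such a gap is. The recurrence was noticed after the values had been seen and was not tested.

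To set single sites of both states on one scale, the 22131 sites called in all 6 libraries were ranked against each other within each library, which gives ranks over lists of equal length. The values given for single sites in the next paragraphs are percentiles among these shared sites, with 100 for the best. All starved values lay above all fed values at 2 of the 23 Hox sites, against 8.51% of all shared sites, and below them at 1, against 7.37%. At the other 20 the groups overlapped.

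The site between Hoxa7 and Hoxa9 (chr6:52221370-52222370) stood at 99.8, 98.3 and 98.9 in starved libraries, against 96.9, 99.2 and 74.5 in fed libraries. It had the best mean of all Hox sites in both groups, with a low value in the third fed library. Its peaks were 747, 471 and 552 bp wide in starved and 794, 743 and 954 bp wide in fed libraries. The site between Hoxb9 and Hoxb8 (chr11:96278508-96279363) stood at 75.3, 61.6 and 62.5 in starved libraries, against 56.6, 69.9 and 86.9 in fed libraries. The site between Hoxc9 and Hoxc8 (chr15:102987115-102987999) stood at 83.5, 81.6 and 79.3 in starved libraries, against 67.0, 85.0 and 46.7 in fed libraries. The site between Hoxd9 and Hoxd8 (chr2:74701993-74702740) stood at 74.1, 70.2 and 70.8 in starved libraries, against 71.9, 64.4 and 73.5 in fed libraries. The groups overlapped at all 4 sites, and all 4 were also among the 23926 best-scored peaks of every library.

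A second recurring place was an annotated end of the group 5 gene, in the 3 clusters that have one. The site over the end of Hoxa5 (chr6:52204320-52205055), a gene needed for lung development, also covers the neighbouring end of Hoxa6 and holds the Hoxa5 promoter printed above. It stood at 75.2, 35.1 and 42.9 in starved libraries, against 69.0, 45.1 and 57.1 in fed libraries. The site over the end of Hoxb5 (chr11:96302801-96303700), which also overlaps Hoxb5os, stood at 55.2, 49.4 and 75.7 in starved libraries, against 85.1, 63.5 and 53.7 in fed libraries. The site over the end of Hoxc5 (chr15:103013299-103014077) stood at 71.7, 54.2 and 75.8 in starved libraries, against 80.8, 66.1 and 64.0 in fed libraries. The groups overlapped at all 3 sites, and the second starved library, which has the shortest list, was the lowest of the starved ones at each. Group 10 genes, which pattern the lumbar region and hindlimb, had a site called in all 6 libraries at an end in 2 of 3 clusters. The one over the end of Hoxa10 (chr6:52240125-52240972), a gene also needed in the uterus, stood at 9.15, 47.1 and 28.5 in starved libraries, against 47.9, 54.5 and 53.6 in fed libraries. The one over the end of Hoxc10 (chr15:102966238-102966815) stood at 34.6, 19.4 and 35.5 in starved libraries, against 18.9, 8.73 and 19.1 in fed libraries. The groups did not overlap at either, with the starved libraries lower at Hoxa10 and higher at Hoxc10.

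Toward the rear end of the axis, the site between Hoxa11 and Hoxa13 (chr6:52256704-52257472) stood at 53.7, 66.8 and 60.6 in starved libraries, against 43.1, 47.7 and 44.2 in fed libraries. This was the second site at which all starved values were the higher ones. Hoxa13 and Hoxd13 are required for digits. The site between Hoxd13 and Hoxd12 (chr2:74672813-74673531) stood at 53.1, 66.8 and 45.3 in starved libraries, against 64.2, 76.6 and 77.5 in fed libraries, with overlap. The long gap between Hoxb13, a gene of the prostate, and Hoxb9 held 5 sites, of which 3 were called in all 6 libraries. The best of them by its fed mean (chr11:96234633-96235546) stood at 38, 78.3 and 74.3 in starved libraries, against 79.4, 51 and 93.5 in fed libraries. The other two stood at 10.7 to 50.1 in starved libraries, against 11.2 to 49.6 in fed libraries.

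Other sites lay within the long annotated gene models of the group 3 genes, which pattern the neck. These models reach past genes of higher number, so the sites given here were not at the front end of a cluster. Hoxa3 held the Hoxa5 site above and a site between Hoxa6 and Hoxa7 (chr6:52211024-52212184), which at 1161 bp was the widest Hox site. It stood at 69.8, 51.9 and 76.4 in starved libraries, against 50.1, 52.9 and 64.5 in fed libraries. A weak site in Hoxa3, between Hoxa4 and Hoxa5 (chr6:52197182-52197655), stood at 3.04, 23.1 and 3.88 in starved libraries, against 1.57, 8.78 and 0.782 in fed libraries. Hoxd3 held 1 site (chr2:74715584-74716455), which also overlaps Hoxd3os1. It stood at 74.9, 57.2 and 61.3 in starved libraries, against 84.1, 48.4 and 63.7 in fed libraries. Hoxb3 held a site called in all 6 libraries (chr11:96311484-96312292), at 41.2, 25.5 and 54.4 in starved libraries, against 42.0, 54.0 and 31.6 in fed libraries. Hoxb6, a gene active in trunk mesoderm, held one at chr11:96294298-96295235, at 38.1, 53.9 and 15.9 in starved libraries, against 23.3, 33.8 and 61.1 in fed libraries. The groups overlapped at all 5 of these sites.

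**Figure D3:**
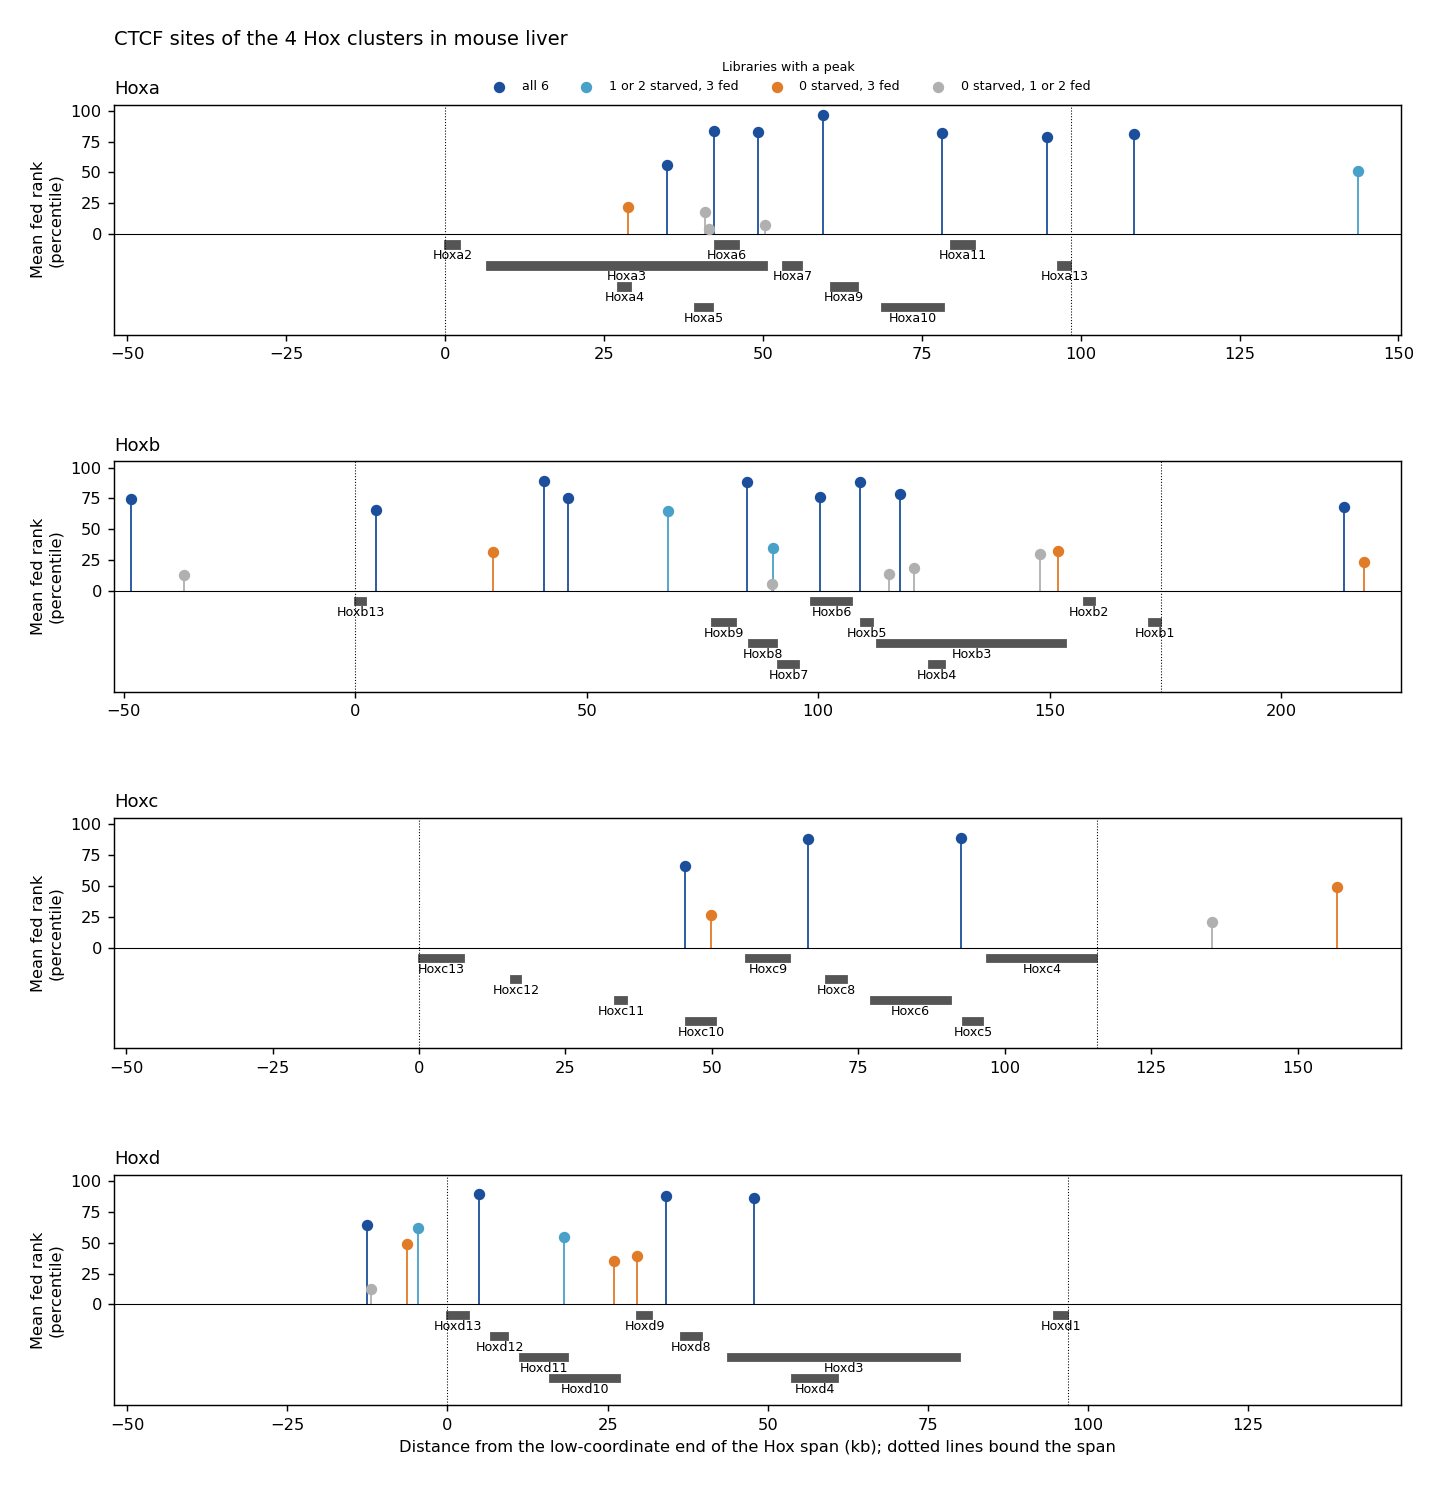
Position of the 47 Hox sites along the 4 clusters (x axis, kb from the low-coordinate end of the gene span) with their mean percentile in the fed libraries that called them (y axis), coloured by the libraries with a peak, with Hox genes drawn below. Each cluster carries tall sites called in all 6 libraries near its group 9 gene. Hoxa, Hoxc and Hoxd have a stretch at the window edge with no site, and the longest such stretch of Hoxb lies between sites.

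The following sites were not shared by all libraries, and their values are percentiles of the full lists. The 9 Hox fed sites with no peak in any starved library (fed percentiles 5.49 to 61.7, mean per site 21.8 to 49.3) were 19.1% of the 47 Hox sites, against 17.2% of all 76061 sites with the same pattern. They lay in all 4 clusters. In Hoxa there was 1, within Hoxa4 and the long Hoxa3 model (chr6:52191081-52191454), at 15.8, 16.5 and 33.1 in fed lists. Hoxb had 3, at 43.5, 13.5 and 38.5 between Hoxb13 and Hoxb9 (chr11:96223872-96224121), at 15.0, 32.1 and 49.4 in Hoxb3 (chr11:96345888-96346460), and at 22.1, 10.3 and 37.9 beyond Hoxb1 (chr11:96412009-96412264). All of these stood below the median of their fed lists. Hoxc had 2, in Hoxc10 (chr15:102970812-102971055) at 27.5, 5.49 and 46.9, and 41.0 kb from Hoxc4 (chr15:103077637-103078004) at 49.8, 36.3 and 61.7. Hoxd had 3. The first of these, 6.29 kb from Hoxd13 (chr2:74661752-74662126), stood at 48.8, 42.7 and 56.2. The second, in Hoxd10 (chr2:74694081-74694395), stood at 22.9, 28.2 and 54.9. The third covers the end of Hoxd9 (chr2:74697600-74698032) and the Hoxd9 promoter printed above, and stood at 39.5, 24.7 and 53.5. Hoxd9 thus had a site of this kind over its end and a site called in all 6 libraries on its Hoxd8 side. At equal list length none of the 9 was a site of all 3 fed lists.

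The 5 sites called in 1 or 2 starved libraries had fed percentiles in between, with means of 35.0 to 64.6. One of them, in Hoxd11 and Hoxd10 (chr2:74686121-74686846), stood at 17.5 and 21.3 in the first 2 starved lists and was not called in the third, against 59.2, 38.3 and 67.4 in fed lists. A site in Hoxb8 (chr11:96284427-96284827), a gene active in blood cell precursors, stood at 2.09 in the first starved list alone, against 31.7, 33.2 and 40.1 in fed lists. The other 10 of the 47 sites (21.3%, against 40.0% of all sites) were called in 1 or 2 fed libraries and no starved one. They were weak, with mean fed percentiles of 4.24 to 29.7. The third fed library, which has the longest list, called 9 of the 10.

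**Figure D4:**
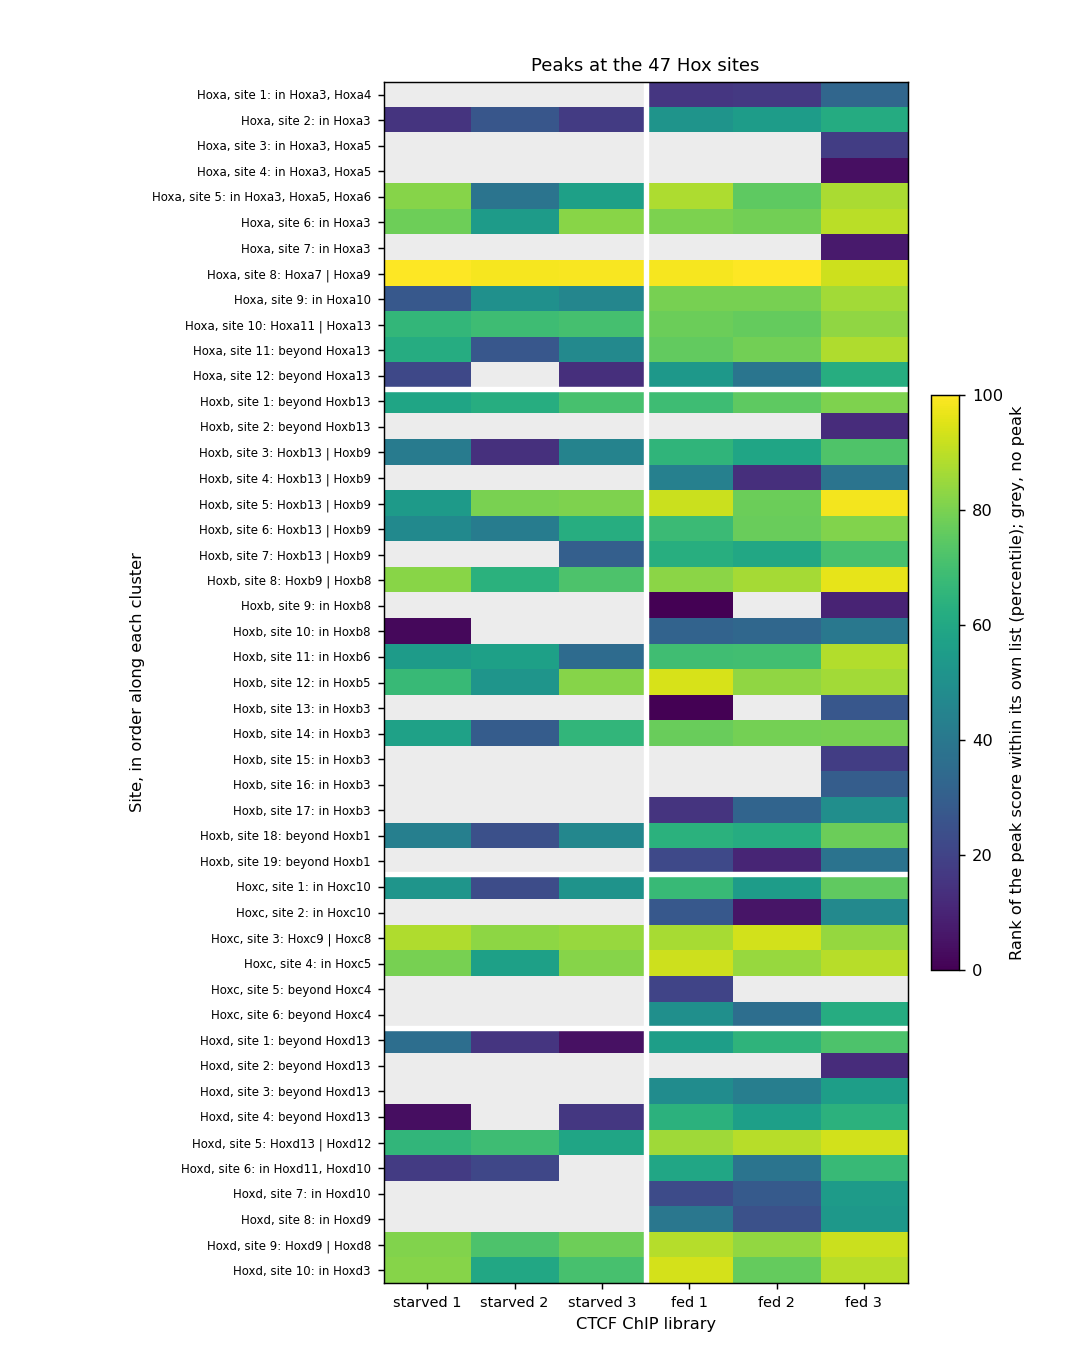
Percentile of the peak score within its own list (colour; grey where no peak was called) at the 47 Hox sites, in order along each cluster (rows), in the 3 starved and then the 3 fed libraries (columns). The 23 sites called in all 6 libraries form bands in every cluster, and the 9 sites called in all fed and no starved libraries are grey on the starved side.

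Most Hox genes had a CTCF peak close by in either state. A peak lay within 5 kb of an annotated end of 28, 28 and 26 of the 38 genes in starved libraries, against 29, 29 and 30 in fed libraries. The mean difference of -2 was 0 at equal list length and -8.33 with the stricter score limit. The shares were 73.7, 73.7 and 68.4% in starved and 76.3, 76.3 and 78.9% in fed libraries, while those of the 21900 protein-coding genes were 46.4, 37.3 and 44.4% in starved and 61.8, 58.9 and 68.8% in fed libraries. The Hox genes stand a few kb from each other, so that 1 site can count for several of them. In all 6 libraries 26 genes had such a peak (68.4%, against 36.4% of coding genes). Hoxa4 was the 1 gene with a peak in all fed and no starved libraries, a pattern of 9.05% of coding genes. Hoxd11 and Hoxd10 had one in all fed and some starved libraries. Hoxb4, which acts in blood stem cells, had one only in the third fed library, which has the longest list. The 8 genes with no peak in any library (21.1%, against 30.9% of coding genes) were Hoxa2, Hoxb2, Hoxb1, Hoxc13, Hoxc12, Hoxc11, Hoxd4 and Hoxd1. Hoxa2, Hoxb1, Hoxb2, Hoxd1 and Hoxd4 act in the hindbrain and neck, and Hoxc13 acts in hair follicles.

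All 8 genes lay in the longest stretch of their window without a site, which was at the front end in Hoxa, Hoxb and Hoxd and at the rear end in Hoxc. The Hoxb stretch ran over 61.2 kb between sites (chr11:96346461-96407630). The others reached the window edge, 50 kb beyond the last gene, and up to the next site outside the window they ran over 104.8 kb in Hoxa (chr6:52086302-52191080), 159 kb in Hoxc (chr15:102807679-102966237) and 109 kb in Hoxd (chr2:74716456-74825782). Neighbouring fed sites lay a median of 10.3 kb apart in the Hox windows, against 19.5 kb over the genome. The median was 12.0 kb in Hoxa, 11.1 kb in Hoxb, 21.4 kb in Hoxc and 7.0 kb in Hoxd. The Hox medians hold only distances within a window and leave out those across its edge. The genome's median holds all distances, so the values are not fully alike. Per 100 kb of window there were 4.53 fed sites in Hoxa, 5.11 in Hoxb, 2.32 in Hoxc and 4.57 in Hoxd. The window edge also parted Hoxb sites, as a site called in all 6 libraries lay 48.5 kb from Hoxb13 just inside it and another 60.6 kb away just outside it, with mean full-list percentiles of 63.9 in starved and 74.9 in fed lists inside and 37.5 in starved and 73.2 in fed lists outside.

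The ranks among shared sites were tested as normal scores (limma, Benjamini-Hochberg over 22131 sites). None of the 23 Hox sites passed an adjusted p of 0.05, a threshold that 22 sites of the genome (0.0994%) passed as higher and 15 (0.0678%) as lower in starved livers. Those genome counts ranged over 5 higher and 1 lower without the first fed library and 54 higher and 89 lower without the second starved one, and the Hox count stayed at 0. At an unadjusted p under 0.05, 0 of the 23 Hox sites were higher and 1 was lower, against 5.30% and 5.70% of all shared sites. In direction, 11 Hox sites were higher and 12 lower in starved livers, with a median difference of -0.06 normal score units, against -0.00 over all shared sites.

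The Hox site with the lowest p was that over the end of Hoxa10, where the first starved library was the lowest. The difference was -0.71 normal score units (SE 0.29, 95% interval -1.29 to -0.12), with an unadjusted limma p of 0.0184 and an adjusted p of 0.331, which ranged over 0.117 to 0.731 under other settings. Without the first starved library the difference was -0.36. The site beyond Hoxb13, within Ttll6, a gene for an enzyme that modifies tubulin (chr11:96145401-96146232), stood at 43.3, 59.7 and 61.1 in starved libraries, against 22.3, 45.1 and 35.4 in fed libraries. These groups overlapped, and the difference was 0.54 (SE 0.28, interval -0.02 to 1.10, limma adjusted p = 0.477, 0.397 to 0.740 under other settings). At the Hoxa7-Hoxa9 site, where the third fed library is low, the difference was 0.79 (SE 0.46, interval -0.13 to 1.71, limma adjusted p = 0.548, 0.411 to 0.904 under other settings). It was 0.29 without the third fed library. At the Hoxc10 and Hoxa11-Hoxa13 sites, whose groups did not overlap, the differences were 0.49 (limma adjusted p = 0.558) and 0.39 (limma adjusted p = 0.638). A p that misses the threshold does not show that these sites were bound alike in both states.

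**Figure D5:**
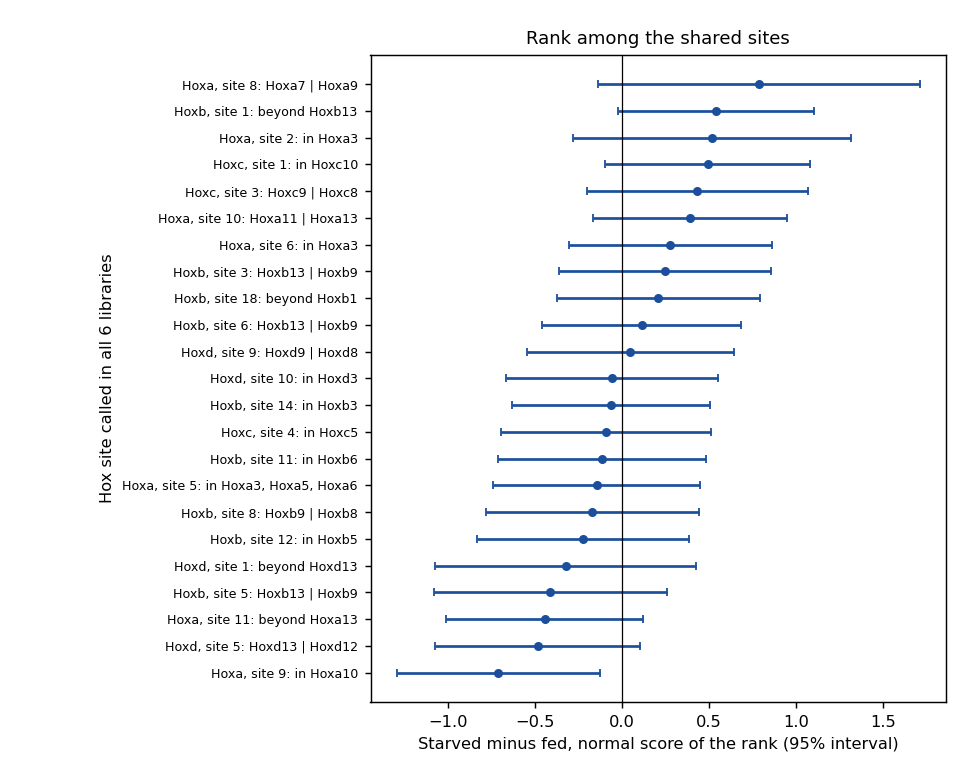
Starved minus fed difference in the normal score of the rank (x axis; points, limma estimates; lines, 95% intervals) for the 23 Hox sites called in all 6 libraries (y axis). The intervals of 22 sites hold 0, and that of the Hoxa10 site runs over -1.29 to -0.12.

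Peaks at the shared Hox sites were narrower in starved livers. Their mean width was 401, 242 and 352 bp in starved libraries, against 670, 633 and 766 bp in fed libraries (332 ± 81.7 and 690 ± 68.5 bp, SD, n = 3 each). The groups did not overlap. All 22131 shared sites showed the same, with 357 ± 88.3 bp in starved and 726 ± 96.7 bp in fed libraries. Set against that, the Hox peaks had 0.929 ± 0.0405 of the genome's mean width in starved and 0.953 ± 0.0395 in fed libraries. This difference was smaller than the spread between libraries.

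The genes that act with Hox proteins or on Hox chromatin were counted in the same way, by fed sites within 5 kb of a gene end. TALE cofactors, the homeodomain partners of Hox proteins, had 15 fed sites at 7 of 9 genes, of which 7 were called in all 3 starved libraries and 6 in none. Among them the best sites of Meis2 and Pbx4 had mean fed percentiles of 94.9 and 93.7. Polycomb genes, whose products silence Hox clusters, had 27 fed sites at 15 of 16 genes, with 15 in all 3 starved libraries and 8 in none. The best site of Pcgf2 stood at a mean percentile of 99.1 in fed lists. Trithorax and MLL genes, whose products keep Hox genes active, had 20 fed sites at 9 of 9 genes, with 6 in all 3 starved libraries and 7 in none. Kmt2a, the MLL gene itself, had 3 fed sites, of which 0 were in all starved libraries. Other homeobox neighbours and ParaHox genes had 5 fed sites at 3 of 8 genes (Evx2, Cdx1 and Cdx2), with 3 in all 3 starved libraries and 1 in none. Of these 5 sites 3 were at Evx2, which lies beside Hoxd13. All 3 are flank sites already counted in the Hoxd window, the best of them at a mean fed percentile of 64.4. This list is therefore not separate from the Hox sites. CTCF and cohesin genes had 15 fed sites at 9 of 12 genes, with 9 in all 3 starved libraries and 2 in none. Counted likewise, the Hox genes had 25 fed sites at 29 of 38 genes, with 17 in all 3 starved libraries and 5 in none. Of all protein-coding genes 57.1% had a fed site within 5 kb, and of all fed sites 49.3% were in all 3 starved libraries and 29.1% in none. No difference between lists was tested.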

How the data were processed

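CTCF ChIP-seq peak lists of the 3 starved and 3 fed libraries were used, 1 per library and not pooled. The 6 input libraries were not analysed here. Each deposited list gives position, name and a score per peak. The meaning of the score, the read depth and the treatment of duplicates and blacklisted regions are not stated in the labels or lists. The lowest score was 2.00 to 2.10 throughout. The submitters' processing notes name the build mm10 and the tools MACS2, HOMER, BWA 0.7.5a, bedtools 2.17, SAMtools and FastQC without saying what each did. The number and width of peaks depend on depth and enrichment.

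Peaks were merged into sites at 1 bp or more of overlap (the result was checked against bedtools 2.31.1) and placed with RefSeq genes of GRCm38.p6, which is mm10, in coordinates counted from 1. Gene ends are those of the annotated gene models. Shares have exact Clopper-Pearson 95% intervals. Ranks among the 22131 sites shared by all libraries were turned into normal scores and fitted with limma 3.58.1 (R 4.3.3, variance trend, no replicate block). The fit was also run on simulated data, with shifts larger than any difference seen at a Hox site. That run says nothing about differences of the size seen there. Other counts are descriptions. Counts were made in Python 3.11.15 (numpy 2.4.6, pandas 2.3.3, scipy 1.17.1) and plots with matplotlib 3.10.9.

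The Hox genes and gene lists were chosen with earlier results of these data known. Named with values were sites that overlap a Hox gene (those of 1 or 2 fed libraries by range), fed sites with no starved peak, the 3 sites per cluster with the best mean fed rank among those in all libraries, and the 3 sites with the lowest limma p. The sites described by gene group were chosen after their values were seen. Alternatives were a score limit at the median, lists of equal length, merging within 500 bp, trimming peaks to 200 bp, flanks of 0 and 100 kb, windows of 1 and 20 kb, percentile ranks, no variance trend, the omission of 1 library at a time, and a replicate block.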

Additional observations from a re-analysis of the deposited data

How the results depend on the processing

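Peak lists do not give the depth behind them, so the number of sites per library is limited by list length. The difference in Hox sites per library, starved minus fed, kept its direction under every alternative run, with -1.33 at equal list length, -10.7 without flanks, -20.7 with flanks of 100 kb and -17.3 to -12.8 when 1 library was left out. Per 10000 peaks it was 0.782 with the stricter score limit, -0.557 at equal list length, where it reversed, and 1.80 to 2.54 with 1 library left out. For Hox genes with a peak within 5 kb the difference was -8.33 with the stricter limit, 0 at equal length and -4 with a window of 1 kb. Fed Hox sites with no starved peak numbered 0 at equal length. With the stricter limit, 18 were in at least 1 starved library and 9 in all 3. The cause of these shifts was not tested.

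Among all shared sites, those called higher in starved livers numbered 14 at equal length, 4 with percentile ranks and 5 to 54 with 1 library left out. Those called lower numbered 0 with percentile ranks, 5 without the variance trend and 1 to 89 with 1 library left out. Without starved 1, 2 and 3 the counts were 36 higher and 42 lower, 54 and 89, and 17 and 27. Without fed 1, 2 and 3 they were 5 and 1, 11 and 5, and 10 and 2. With the replicate number as a block they were 47 and 68. After the group mean of each site was subtracted, what remained correlated at 0.00247, -0.0238 and 0.00813 between same-numbered starved and fed libraries. These libraries share a number and are not shown to be paired. No Hox site was called under any of these settings. The Hox median difference of -0.06 turned to 0.06, 0.08, 0.07 and 0.10 without starved 2, starved 3, fed 1 and fed 3. With 1 library left out the difference was -0.84 to -0.36 at the Hoxa10 site, 0.37 to 0.69 at the Ttll6 site and 0.29 to 1.17 at the Hoxa7-Hoxa9 site.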
